A study of Saccharomyces cerevisiae with 6 samples.

Results

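The DNA replication machinery of budding yeast was followed here as 38 genes, those annotated to origin recognition, helicase, polymerase, clamp, clamp loader and replication factor functions, out of 5656 genes measured on 6 Affymetrix yeast arrays. Each gene was found by the symbol that the array annotation gives to its probe set. One probe set was measured for 37 of the genes. POL2 has 9 probe sets, of which the brightest stood for the gene and the other 8 were dimmer. ORC6, which encodes the smallest subunit of the origin recognition complex, lay at or below the detection floor on all 6 arrays, with intensities between 44.4 and 59.3, so that 37 of the 38 genes entered the tests.

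In every cell cycle the origin recognition complex (ORC) marks the start sites of replication, and with Cdc6 it loads the ring-shaped MCM helicase onto DNA in G1. Kinases then trigger the recruitment of Cdc45 and other factors that switch the helicase on. Polymerase alpha with primase starts each new strand, polymerase epsilon extends the leading strand and polymerase delta the lagging strand, both held on DNA by the sliding clamp PCNA. The pentameric replication factor C loads that clamp, and the 3-subunit replication protein A (RPA) coats the exposed single-stranded DNA. Transcripts of many of these genes rise in late G1 under the transcription factor MBF, a complex of Mbp1 and Swi6, whereas several MCM genes peak earlier, between M phase and G1.

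The strain YSX3 is a MATalpha yeast that carries 3 Pichia stipitis genes for xylose metabolism, XYL1 integrated with the marker LEU2 at leu2, XYL2 with URA3 at the ura3 locus, and XYL3 with NEO at Ty3. It was grown in YP medium with xylose or with glucose, in oxygen-limited culture (40 g/L sugar, harvested at an OD600 of 30) and in aerobic culture (20 g/L, harvested at an OD600 of 1). A respiration-deficient petite mutant, FPL-YSX3P, was sampled after 24 hours in xylose medium and from the glucose medium in which it was first grown, at an OD600 of 1. Each of the 6 conditions had 1 array and no replicate, and the mutant is 1 strain. In the oxygen-limited comparison oxygen supply, sugar concentration, culture vessel and cell density cannot be told apart. In the petite mutant, sugar and time since the move from glucose to xylose medium cannot be told apart. No OD600 is given for the petite xylose culture, and no sugar concentration, flask or shaking rate for either petite culture. In petite minus aerobic, loss of respiration therefore cannot be told apart from differences in culture conditions or, on xylose, in time.

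Intensities below were scaled to a common array median, and values under the 25th percentile of all scaled values, 61.7, were treated as lying at a floor. Between 33 and 37 of the 38 replication genes lay above the floor on each array, and 88.0% to 90.5% of all genes did. A linear model with terms for culture background and sugar was fitted across all 5462 genes that rose above the floor on at least 1 array. Its p-values, adjusted by the Benjamini-Hochberg procedure, rest on 2 residual degrees of freedom and on the assumption that sugar acts alike in the 3 backgrounds. The 2 oxygen-limited arrays differed from the aerobic arrays along the probe set numbering. The highest-numbered probe sets, which stand for 670 of the genes (12.3%), were dimmer on them, with a median difference of -0.44 on xylose and -0.57 on glucose (log2, oxygen-limited minus aerobic), against -0.02 and -0.06 for lower-numbered probe sets. Of the genes in that stretch 30.3% were called lower in oxygen-limited culture, against 14.0% of the others. The stretch also differed in other pairs. Its median was 0.30, against -0.03 for lower-numbered probe sets, in xylose minus glucose of oxygen-limited culture. In petite minus aerobic on xylose it was -0.31, against -0.12. PRI2, RAD27, RFC2, DPB11, RFA3, CDC6 and RFA1 lie in the stretch, and their oxygen-limited differences are given both as measured and after subtraction of a running median taken along the numbering.

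**Figure D1:**
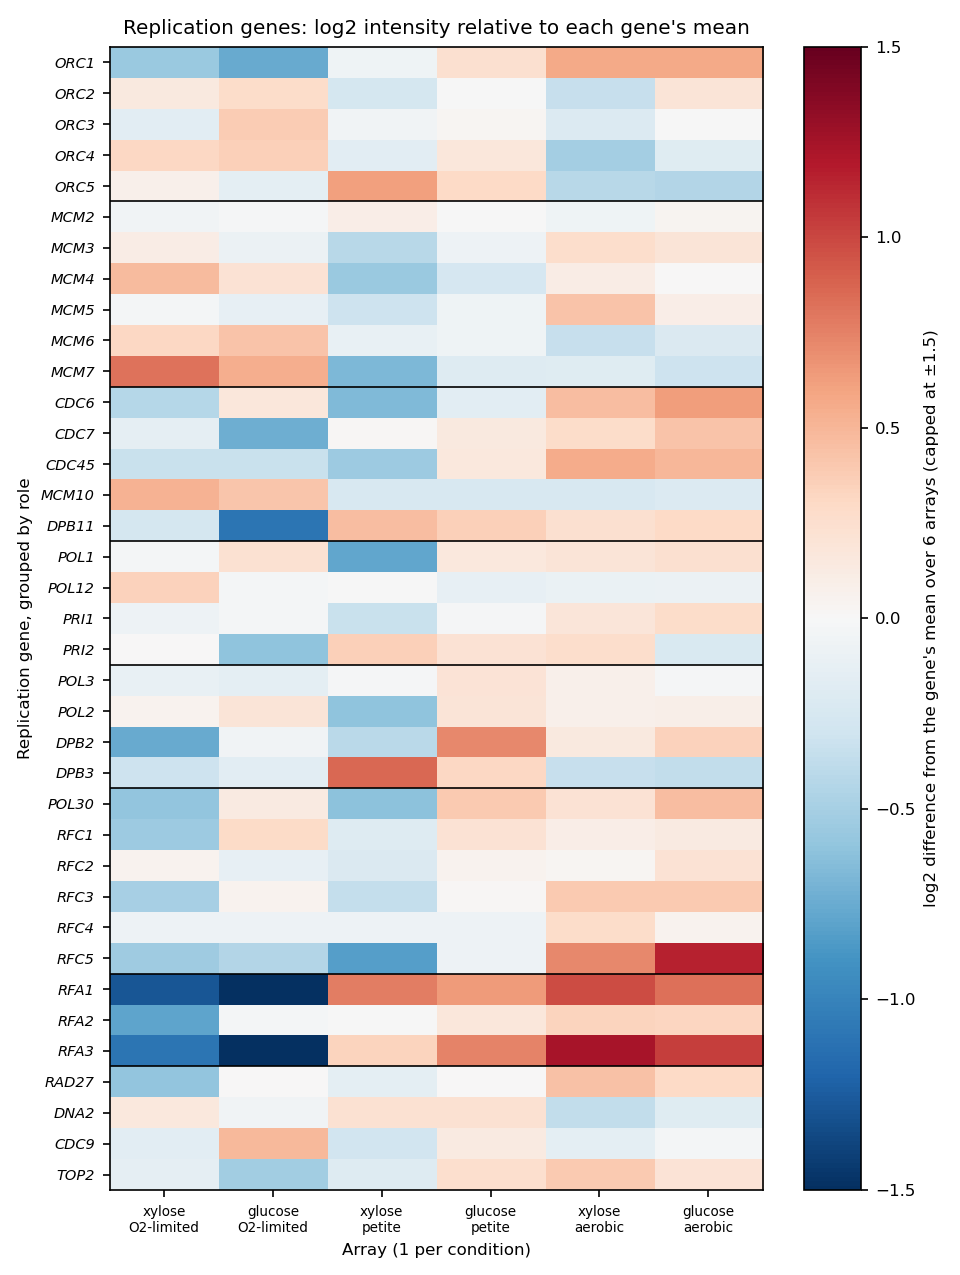
Scaled log2 intensity of the 37 replication genes above the floor on at least 1 array, each relative to its own mean over the 6 arrays (colour, capped at ±1.5), by array (columns, 1 per condition) and grouped by role (rows). RFA1 and RFA3 are darkest blue on the 2 oxygen-limited arrays, MCM6 and MCM7 are red on the same arrays, and POL1, POL2 and POL30 are bluest or among the bluest on the petite xylose array.

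The first question was how replication genes differ between oxygen-limited and aerobic cultures. Called lower in oxygen-limited culture were 2 subunits of RPA, 1 of the clamp loader and 1 of ORC. Called higher were 3 genes named for minichromosome maintenance (MCM). Of the 37 genes tested, 4 fell (RFA1, RFA3, RFC5 and ORC1) and 3 rose (MCM6, MCM7 and MCM10), by limma with adjusted p under 0.05, which is 18.9% of them. Over all genes 16.0% were called lower and 8.04% higher, 24.0% together, so the share of replication genes called was not above that of all genes. With the intensities as deposited 70.4% of all calls were higher in oxygen-limited culture, and 43.6% after quantile normalization, against 33.5% here, while 5 and 2 replication genes rose and 4 fell under either. Leaving out any 1 of the aerobic or oxygen-limited arrays leaves 1 residual degree of freedom, and then 0 of all genes passed in this comparison. The median difference of the 37 genes was -0.24, beside -0.08 over all genes (log2). Its direction depends on the scaling: it was 0.106 beside 0.212 over all genes with the intensities as deposited, and -0.056 beside 0.033 with the running median removed. On arrays, a smaller share of replicating cells and less of each mRNA per cell cannot be told apart.

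RPA held the widest differences. RFA1, the large DNA-binding subunit, had scaled intensities of 136 on xylose and 86.8 on glucose in oxygen-limited culture, against 653 and 589 in aerobic culture. The petite arrays read 566 and 516, so that both oxygen-limited arrays lay below the 4 others. The fitted difference was -2.51 ± 0.21 (SE, log2), which is 5.71-fold lower in oxygen-limited culture (limma adjusted p = 0.0168). RFA3, the smallest subunit, had 138 on xylose and a value at the floor on glucose in oxygen-limited culture, against 693 and 604 in aerobic culture. It fell by 2.81 ± 0.38 on the log2 scale (limma adjusted p = 0.0193), a size that depends on the floor because 1 array lay under it. RFA2, the middle subunit, had 206 on xylose and 348 on glucose in oxygen-limited culture, against 447 and 441 in aerobic culture. Both oxygen-limited arrays were again the lowest of the 6, but the difference of -0.73 ± 0.25 did not pass the threshold (limma adjusted p = 0.0856).

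The 3 subunits function as one complex, and their probe sets lie in different parts of the array numbering. RFA1 and RFA3, with the numbers 11327 and 11210, are in the stretch that was dimmer on the oxygen-limited arrays, whereas RFA2, with 9172, is not. With the running median removed, RFA1 was at -1.54 (limma adjusted p = 0.0149) and RFA3 at -1.86 (limma adjusted p = 0.0179), so both still passed at a smaller size. RFA2 was at -0.63 (limma adjusted p = 0.102). Whether the stretch accounts for the rest of the gap between RFA2 and the other two was not tested.

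**Figure D2:**
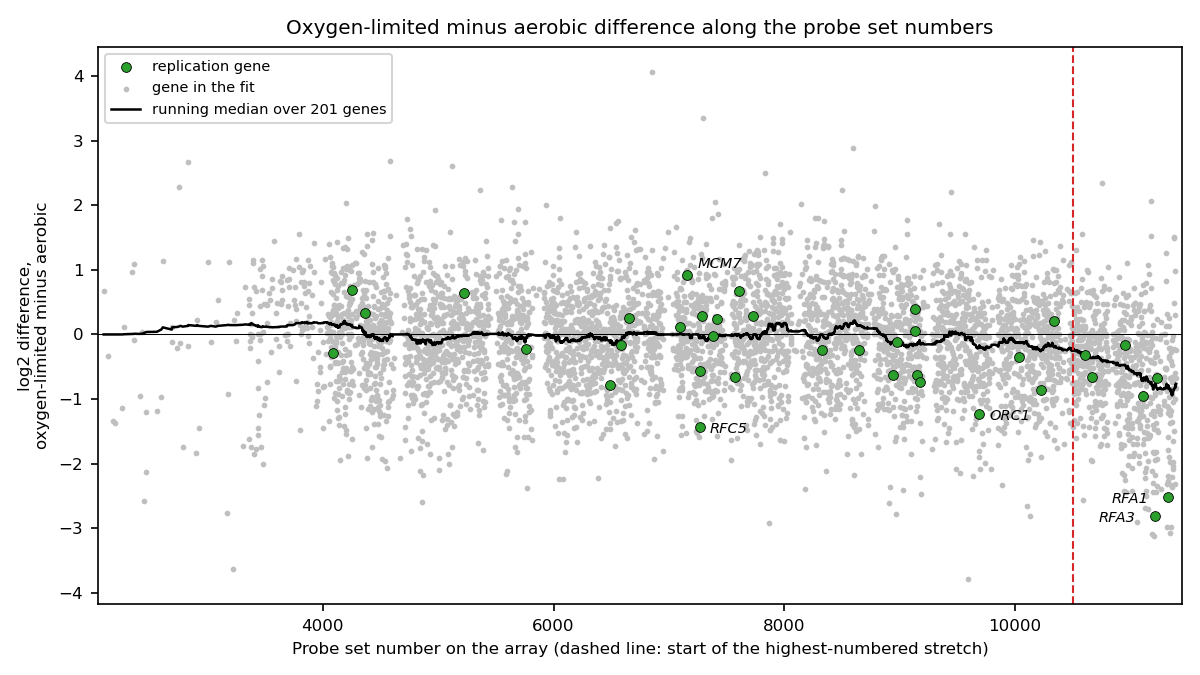
Difference between oxygen-limited and aerobic culture (vertical axis, log2) against the probe set number on the array (horizontal axis) for all 5462 genes (grey) and the 37 replication genes (green), with a running median (black) and a dashed line where the highest-numbered stretch begins. The running median drops right of the line, and RFA1 and RFA3 lie below it there, while RFC5, ORC1 and MCM7 lie left of the line.

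In the clamp and clamp loader group 1 of 6 genes fell, beside 16.0% of all genes. RFC5, a small subunit of replication factor C, had 82.4 on xylose and 87.8 on glucose in oxygen-limited culture, against 197 and 266 in aerobic culture, and the groups did not overlap. It fell by 1.43 ± 0.22 on the log2 scale, 2.69-fold (limma adjusted p = 0.0211), and by 1.29 with the running median removed. RFC5 kept this call under each of 8 changes of processing that left all arrays in. POL30, which encodes PCNA, had 355 on xylose and 585 on glucose in oxygen-limited culture, against 619 and 738 in aerobic culture, a difference of -0.57 ± 0.24 that did not pass (limma adjusted p = 0.135). RFC3, another small subunit of the loader, was at -0.62 ± 0.21 (limma adjusted p = 0.0859). The other small subunits RFC2 and RFC4 and the large subunit RFC1 were between -0.25 and -0.16. RFC2 was at 0.42 with the running median removed. RFC1 and RFC2 were above 0 with the intensities as deposited, so their direction depends on the scaling. RFC4 lay at the floor on 4 of the 6 arrays, so its difference is poorly measured.

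Within ORC 1 of 5 measured subunits fell, beside 16.0% of all genes. ORC1, the subunit with the ATPase that works with Cdc6, had 70.7 on xylose and a value at the floor on glucose in oxygen-limited culture, against 155 on both aerobic arrays. The difference was -1.23 ± 0.20 (limma adjusted p = 0.0229), and -1.03 with the running median removed (limma adjusted p = 0.0238). A floor at the 40th percentile ended this call. The petite arrays, at 99.8 and 123, lay between the 2 sets of cultures. The other 4 measured subunits lay above 0. ORC4 had 247 on xylose and 253 on glucose in oxygen-limited culture, against 140 and 176 in aerobic culture, a difference of 0.68 ± 0.19 that just missed the threshold (limma adjusted p = 0.0538). ORC2, ORC3 and ORC5 were at 0.28, 0.21 and 0.39, and none of them passed.

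Within the MCM helicase 2 of 6 subunits rose and 0 fell, beside 8.04% and 16.0% of all genes. MCM7 had 351 on xylose and 293 on glucose in oxygen-limited culture, against 176 and 162 in aerobic culture, and the petite arrays read 126 and 175. It rose by 0.93 ± 0.24, 1.90-fold (limma adjusted p = 0.0482). MCM6 had 354 and 384 in oxygen-limited culture, against 225 and 245 in aerobic culture, and rose by 0.65 ± 0.17 (limma adjusted p = 0.0495). For both genes the 2 oxygen-limited arrays were the highest of the 6. None of the 4 other subunits of the ring passed, with MCM4 at 0.29, MCM2 at -0.03, MCM3 at -0.22 and MCM5 at -0.35. MCM2, MCM3 and MCM5 were above 0 with the intensities as deposited. The 2 calls sit at the threshold: MCM7 passed under 5 and MCM6 under 6 of 8 changes of processing that left all arrays in, and MCM6 no longer passed without the petite pair. The proteins form a ring with 1 copy of each subunit. Whether MCM6 and MCM7 differ from the other 4 subunits was not tested.

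Among the genes that load and activate the helicase 1 of 5 rose, beside 8.04% of all genes. MCM10, an activation factor that is not part of the hexamer, had 105 on xylose and 97.7 on glucose in oxygen-limited culture, against 53.2 and 63.4 in aerobic culture. Of the 4 other arrays 3 lay at the floor, so its difference of 0.69 ± 0.17 (limma adjusted p = 0.0445) is limited by the floor. It was at 0.60 with the running median removed (limma adjusted p = 0.058) and did not pass without the petite pair or after quantile normalization. The other 4 genes of this group were lower without passing. CDC45, a helicase cofactor, was at -0.86 ± 0.25 (limma adjusted p = 0.0621), and CDC7, the catalytic subunit of the kinase that fires origins, was at -0.78 ± 0.25 (limma adjusted p = 0.0767). CDC45 had 71.3 and 71.6 in oxygen-limited culture, against 133 and 127 in aerobic culture. DPB11, a scaffold that brings activation factors to the origin, was at -0.95 and the loader CDC6 at -0.68 as measured, but with the running median removed they were at 0.02 and 0.33, so no direction can be given for either.

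Among the replication genes followed here, those of the polymerases and of Okazaki fragment processing gave no call in this comparison. The largest polymerase difference among them was that of DPB2, an essential subunit of polymerase epsilon (-0.66 ± 0.26, limma adjusted p = 0.124). DPB2 had 92.0 on xylose and 150 on glucose in oxygen-limited culture, against 173 and 198 in aerobic culture. The catalytic subunits were near 0, with POL1 of polymerase alpha at -0.11, POL2 of polymerase epsilon at 0.05 and POL3 of polymerase delta at -0.16, and with the intensities as deposited POL1 and POL3 were above 0. The polymerase alpha subunit POL12 was at 0.25, the primase genes PRI1 and PRI2 at -0.29 and -0.32 (PRI2 at 0.05 with the running median removed), and the small polymerase epsilon subunit DPB3 at 0.12. RAD27, the flap nuclease, was at -0.66 ± 0.24 (limma adjusted p = 0.0957) as measured and at -0.31 with the running median removed. TOP2, the type II topoisomerase, was at -0.62, DNA2, a nuclease and helicase, at 0.33 and CDC9, the DNA ligase, at 0.25.

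**Figure D3:**
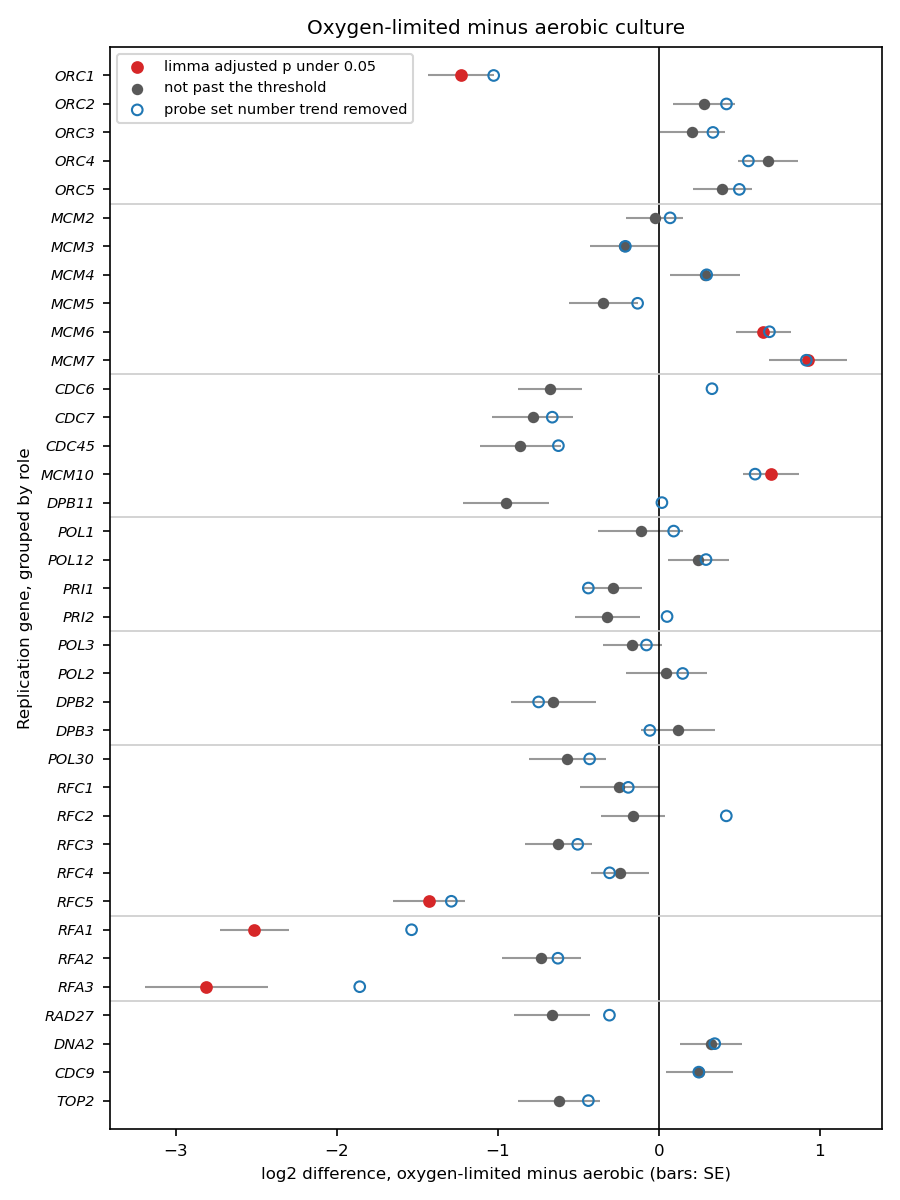
Fitted difference between oxygen-limited and aerobic culture (log2, horizontal axis, bars SE) for each of the 37 replication genes, grouped by role. Red points passed the limma threshold, grey points did not, and open blue circles give the value with the running median removed. The circles move RFA1 and RFA3 toward 0 but leave them lowest, and move CDC6, DPB11, RFC2 and PRI2, among others, to the other side of 0.

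Differences between single pairs of arrays were described by a 2-fold rule, with no test. On xylose, 6 replication genes were at least 2-fold lower in oxygen-limited culture and 0 at least 2-fold higher, beside 15.4% and 9.36% of all genes. On glucose, 6 were at least 2-fold lower and 0 higher, beside 11.6% and 4.5% of all genes. RFA1, RFA3, RFC5 and ORC1 were among the 6 on both sugars. RFA2 and RAD27 joined them on xylose, whereas DPB11 and CDC7 did so on glucose. After removal of the running median none of these last 4 was 2-fold apart (RFA2 at -0.99 and RAD27 at -0.71 on xylose, DPB11 at -0.30 and CDC7 at -0.99 on glucose), and ORC1 was no longer among the genes on xylose. DPB2 then passed the 2-fold rule on xylose, at -1.09, against -0.91 as measured. As measured, on both sugars 21 of the 37 genes were lower and 11 higher, 56.8% and 29.7%, beside 46.1% and 34.5% of all genes. Probe sets of the same gene disagreed in these pairs with a standard deviation of 0.62 on xylose and 0.68 on glucose (log2). Single differences below about that size are not resolved. That spread holds no variation between cultures, so it does not show that larger differences are resolved.

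The second question was how the petite mutant differs from the aerobic parent. No replication gene passed by limma in either direction, with 3 higher and 4 lower at an unadjusted p under 0.05, beside 11.7% higher and 22.2% lower over all genes at that threshold. After adjustment only 1 of all genes was called higher and 1 lower, 0.0183% each, so the comparison called almost nothing at this threshold. With the intensities as deposited 199 genes were called, 84.4% of them higher. The median over the 37 genes was -0.21, beside -0.11 over all genes. With the intensities as deposited it was 0.035, beside 0.113, so that its direction also depends on the scaling, and with the running median removed it was -0.093, beside 0.002. The petite and oxygen-limited comparisons share the aerobic arrays, so their values are given side by side and were not set against each other.

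RFC5 had the lowest difference among the replication genes in the petite mutant. It had 67.4 on xylose and 113 on glucose in the petite mutant, against 197 and 266 in aerobic culture, and the groups did not overlap. The difference was -1.39 ± 0.22, 2.62-fold lower (limma adjusted p = 0.0516). CDC6 had a value at the floor on xylose and 87.4 on glucose in the petite mutant, against 135 and 151 in aerobic culture, a difference of -0.96 ± 0.20 (limma adjusted p = 0.0557). With the running median removed CDC6 was at -0.81 (limma adjusted p = 0.0851). CDC45 was at -0.72 ± 0.25 (limma adjusted p = 0.121) and RFC3 at -0.57 ± 0.21 (limma adjusted p = 0.133). The RPA subunits were at -0.20 for RFA1, -0.25 for RFA2 and -0.60 for RFA3, and none of the 3 passed. RFA1 and RFA2 were above 0 with the intensities as deposited.

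ORC5, an ATP-binding subunit of ORC, and DPB3 had the highest differences. ORC5 had 399 on xylose and 321 on glucose in the petite mutant, against 195 and 192 in aerobic culture, and the oxygen-limited arrays read 275 and 235. The difference was 0.88 ± 0.18 (limma adjusted p = 0.0557). DPB3 had 327 and 224 in the petite mutant, against 142 and 140 in aerobic culture, a difference of 0.94 ± 0.23 (limma adjusted p = 0.0661). With the running median removed, ORC5 rose by 1.03 and RFC5 fell by 1.15, both with a limma adjusted p of 0.0428. In the same setting 405 genes were called over the whole array, against 2 without it. On the chromosome POL2 and ORC5 are next to each other on the same strand, and RFC5 and POL30 are next to each other on opposite strands. POL2 was at -0.28 and POL30 at -0.45 in the petite mutant.

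By the 2-fold rule, 3 replication genes were lower (RFC5, CDC6 and CDC45) and 2 higher (DPB3 and ORC5) in the petite mutant on xylose, beside 13.5% and 8.44% of all genes. On glucose 1 (RFC5) was lower and 0 were higher, beside 5.06% and 4.72% of all genes. CDC6 and CDC45 lay at the floor on the petite xylose array, so their differences of -1.13 and -1.11 are bounds. With the running median removed they were at -0.84 and -0.70, so neither was then 2-fold lower.

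**Figure D4:**
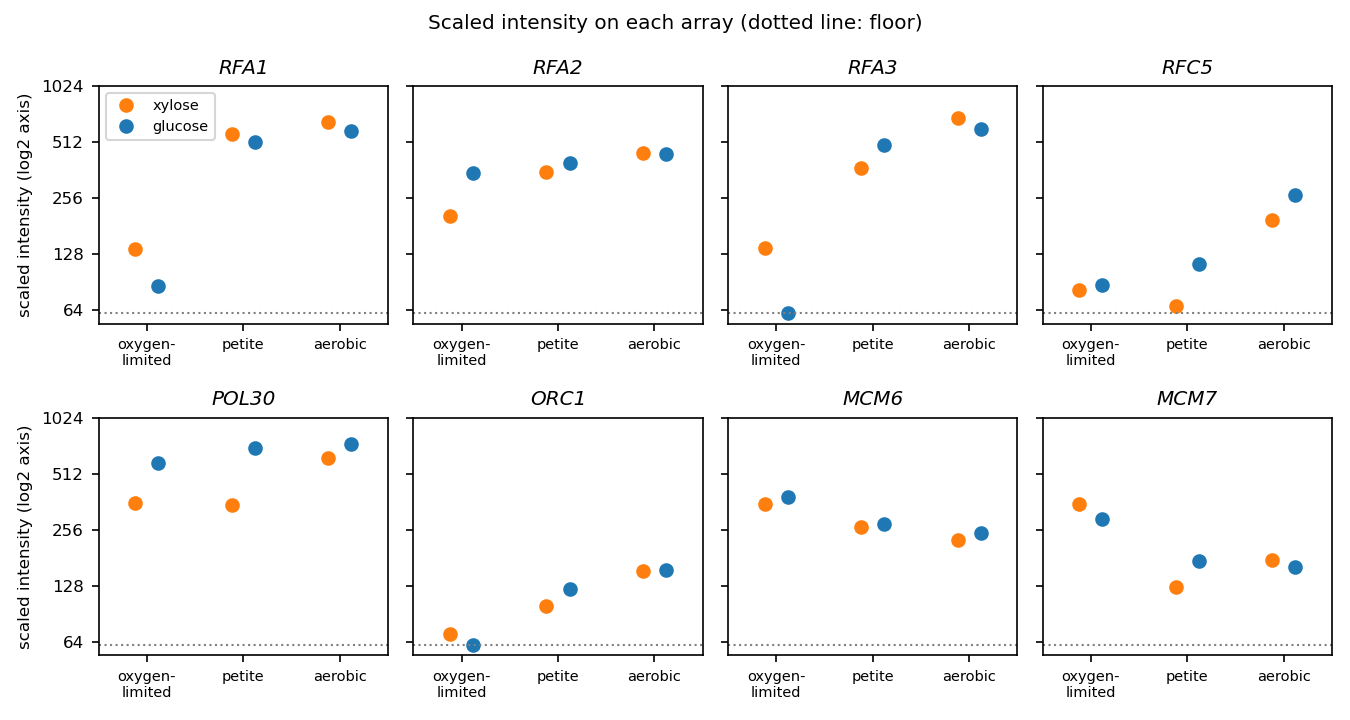
Scaled intensity (log2 axis) of 8 replication genes on each array, with xylose (orange) left of glucose (blue) within the oxygen-limited, petite and aerobic backgrounds; the dotted line is the floor of 61.7, and values under it are drawn on it. RFA1 and RFA3 are lowest on the oxygen-limited arrays, RFC5 is low on the oxygen-limited and petite arrays, MCM6 and MCM7 are highest on the oxygen-limited arrays, and POL30 is lower on xylose than on glucose in all 3 backgrounds.

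The third question was whether replication genes differ between xylose and glucose. No replication gene passed by limma, with 0 higher and 3 lower at an unadjusted p under 0.05, beside 12% higher and 9.79% lower over all genes at that threshold. After adjustment 0.677% of all genes were called higher and 0.0732% lower. The median over the 37 genes was -0.04, beside -0.03 over all genes. Of the 35 genes that could be compared in all 3 backgrounds, 14 were lower on xylose in each background and 3 were higher in each, 40.0% and 8.57%, beside 26.1% and 24.8% of all genes. Whether these shares differ was not tested.

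POL30 and DPB2 had the widest sugar differences. POL30 had 355 on xylose against 585 on glucose in oxygen-limited culture, 349 against 699 in the petite mutant, and 619 against 738 in aerobic culture. Its fitted difference was -0.66 ± 0.19 (xylose minus glucose, limma adjusted p = 0.17). DPB2 had 92.0 on xylose against 150 on glucose in oxygen-limited culture, 118 against 255.7 in the petite mutant, and 173 against 198 in aerobic culture, with a fitted difference of -0.67 ± 0.22 (limma adjusted p = 0.185). Both genes were lower on xylose in 3 of 3 backgrounds, with the smallest gap in aerobic culture. PRI2, the large primase subunit, lay at the other end, with 322 on xylose against 211 on glucose in oxygen-limited culture, 411 against 374 in the petite mutant, and 385 against 275 in aerobic culture (0.41 ± 0.17, limma adjusted p = 0.233). The fitted difference of PRI2 was 0.31 with the running median removed. PRI2, ORC5 and RFA1 were the 3 genes higher on xylose in all 3 backgrounds. The other primase gene, PRI1, was lower on xylose in all 3, at -0.15 ± 0.15 in the fit.

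The additive model gives 1 sugar difference for all backgrounds, but the pairs of arrays did not look alike. In the petite mutant 28 of 35 replication genes, 80.0%, were lower on xylose, beside 52.7% of all genes, and their median was -0.30, beside -0.04 over all genes. In oxygen-limited culture the median was -0.02, beside 0.00 over all genes, and in aerobic culture it was -0.01, beside 0.00. With the running median removed the petite median was -0.20. These are differences between 2 arrays each, and whether the sugar difference itself differs between backgrounds was not tested. In the petite pair, sugar cannot be told apart from time since the move to xylose medium.

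DPB2, POL30, POL1 and POL2 had the lowest differences in the petite pair. POL1 had 185 on the petite xylose array against 355 on the petite glucose array, and POL2 had 222 against 386. On the 4 other arrays POL1 lay between 312 and 374, and POL2 between 350 and 385. For POL1 and for the brightest POL2 probe set, the petite xylose array alone was low. The differences were -0.95 for POL1, -0.79 for POL2, -1.003 for POL30 and -1.12 for DPB2 (log2, petite xylose minus petite glucose). RFC5 was at -0.75, and CDC45, at the floor on xylose, at -0.70 as a bound. In this pair probe sets of the same gene disagreed with a standard deviation of 0.37, over 216 genes. DPB3 at 0.54 and ORC5 at 0.32 went the other way, as did PRI2, RFA1, POL12, MCM2 and DPB11, at 0.10 to 0.14. Of the other POL2 probe sets 1 lay above the floor on all 6 arrays, with 67.1 on petite xylose against 104 on petite glucose, and 104 to 167 on the other arrays. Another went the other way. It lay at the floor on petite glucose alone, with 62.3 on petite xylose and 75.1 to 114 on the other arrays. The rest lay at the floor on 3 or more arrays.

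By the 2-fold rule, 0 replication genes were higher and 2 lower on xylose in the petite mutant (POL30 and DPB2), beside 5.78% and 5.28% of all genes. With the running median removed the 2 were DPB2 at -1.09 and POL1 at -1.07, with POL30 at -0.88. In oxygen-limited culture 1 was higher (RFA3, a bound, since its glucose array lay at the floor, and at 0.81 with the running median removed) and 0 lower, beside 8.78% and 4.22%. In aerobic culture 0 were higher and 0 lower, beside 3.13% and 2.10%, and the differences ran between -0.54 (ORC2) and 0.49 (PRI2).

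**Figure D5:**
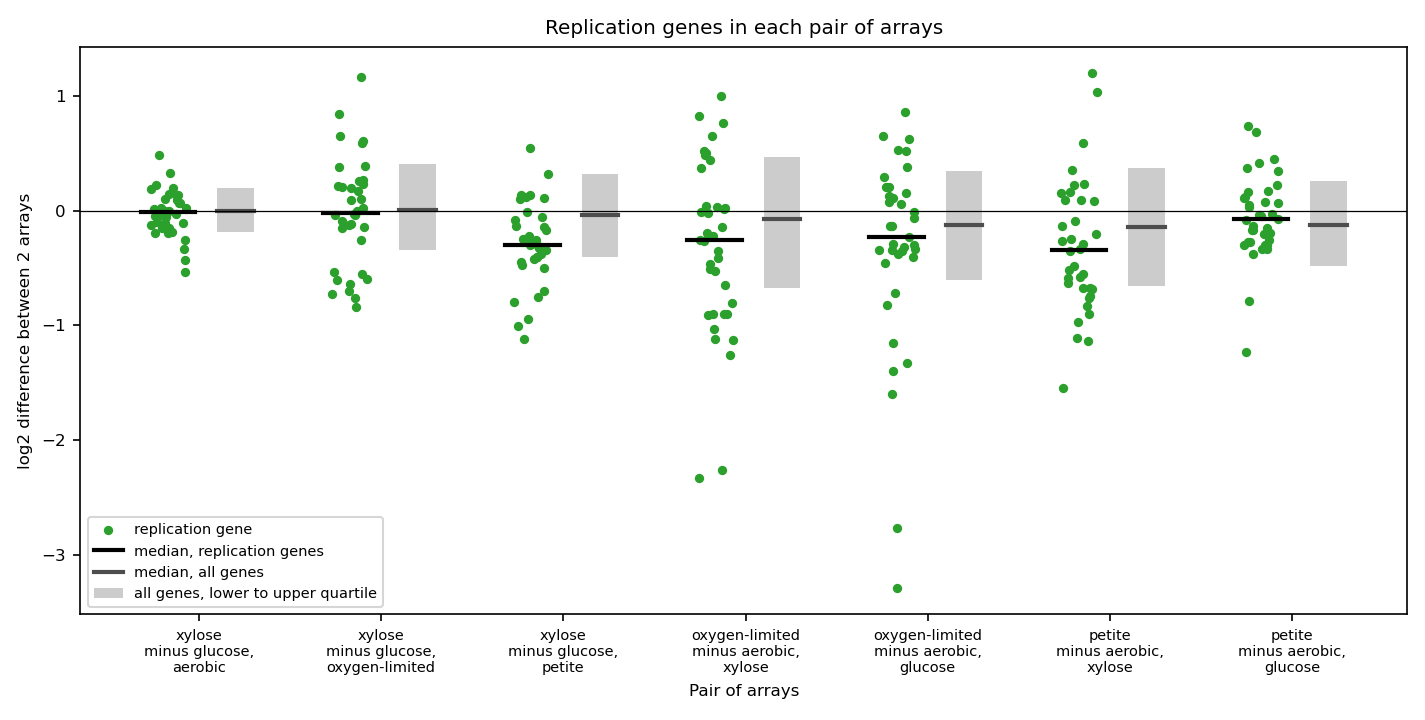
Difference of each replication gene between 2 arrays (green points, log2) for the 7 pairs of arrays, with the median of the replication genes (black line) and the lower to upper quartile and median of all genes (grey box and line). In the petite xylose minus glucose pair the replication gene median, -0.30, lies below the all-gene median, -0.04; in the 2 oxygen-limited minus aerobic pairs RFA1 and RFA3 are the 2 lowest points.

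Other genes of replication and of the cell cycle were set beside these 37. Among 23 further fork and initiation genes, 2 rose and 2 fell in oxygen-limited culture by limma, beside 8.04% and 16.0% of all genes, and the median was 0.06. SLD7, an initiation factor, rose by 0.76 (limma adjusted p = 0.0446), and RNH203, a subunit of RNase H2, rose by 0.89 (limma adjusted p = 0.0444). ELG1, of an alternative clamp loader that unloads PCNA, fell by 0.98 (limma adjusted p = 0.0435). POL31, a subunit of polymerase delta, fell by 1.14 (limma adjusted p = 0.0207), but its probe set is in the dimmer stretch and with the running median removed it was at -0.35 (limma adjusted p = 0.295). SLD7 lay at the floor on the 4 other arrays, and ELG1 on the oxygen-limited glucose array.

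Among 14 further MBF target genes with a probe set, 6 fell and 1 rose in oxygen-limited culture, beside 16.0% and 8.04% of all genes, with a median of -0.57, beside -0.08. After removal of the running median 3 fell and 1 rose, and the median was -0.40. The list was not tested as a group. CDC21, the thymidylate synthase gene, fell by 0.98 (limma adjusted p = 0.0472). CDC8, the thymidylate kinase gene, fell too, at -1.64 (limma adjusted p = 0.0178). NRM1, a corepressor of MBF, fell by 0.98 (limma adjusted p = 0.0252). In oxygen-limited culture CDC8 lay at the floor on glucose and NRM1 on xylose, so the sizes of their differences depend on the floor. SMC3, ASF1 and SWE1 were called lower too, at -1.46, -1.11 and -1.40, but their probe sets and that of CDC8 lie in the dimmer stretch, and SMC3 and SWE1 were at the floor on both oxygen-limited arrays. With the running median removed, CDC21, CDC8 and NRM1 passed and SMC3, ASF1 and SWE1 did not. RAD53, the checkpoint kinase gene, rose by 0.90 (limma adjusted p = 0.0274), with both aerobic arrays at the floor. RNR1, the large subunit of ribonucleotide reductase, had 138 on xylose and 513 on glucose in the petite mutant, against 736 and 642 in aerobic culture, a difference of -1.37 ± 0.52 (limma adjusted p = 0.139). All 13 MBF targets that could be compared were lower on xylose in the petite mutant, beside 52.7% of all genes. Their median was -0.48, beside -0.04 over all genes.

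Of 6 G1/S transcription regulators above the floor, 1 rose in oxygen-limited culture and 0 fell, beside 8.04% and 16.0% of all genes. MBP1, the DNA-binding subunit of MBF, had 361 on xylose and 258 on glucose in oxygen-limited culture, against 88.7 and 96.1 in aerobic culture, and the petite arrays read 87.9 and 164.7. It rose by 1.73 ± 0.35, 3.31-fold (limma adjusted p = 0.0295). SWI6, which encodes its partner, was at -0.59 (limma adjusted p = 0.0749).

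Core histone genes, whose transcripts are made in S phase, were measured singly for HTB1 and HTB2, both of which encode histone H2B. HTB2 had 116 on xylose and 126 on glucose in the petite mutant, against 1270 and 1246 in aerobic culture, and the oxygen-limited arrays read 489 and 958. The petite difference was -3.38 ± 0.29, 10.4-fold lower, and did not pass (limma adjusted p = 0.0516). With the running median removed HTB2 was at -3.19 and passed (limma adjusted p = 0.0399), in a setting that called 405 genes over the whole array. HTB1 had 704 and 1122 in the petite mutant, against 2251 and 2062 in aerobic culture (-1.28 ± 0.26, limma adjusted p = 0.0543). The coding sequences of these paralogs are alike, so signal may be shared between their probe sets. In oxygen-limited culture HTB1 was at -0.02 and HTB2 at -0.88, and neither passed.

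Neither the 11 mitotic genes of the CLB2 cluster nor the 11 genes of late M and early G1 gave a call in any of the 3 comparisons as measured. With the running median removed RME1, of the late M and early G1 genes, rose by 0.66 in oxygen-limited culture (limma adjusted p = 0.0458). It fell by 0.94 in the petite mutant (limma adjusted p = 0.043). In the petite pair, xylose minus glucose, the medians of the CLB2 cluster and of the late M and early G1 genes were -0.95 and -0.45, beside -0.04 over all genes. In that pair 8 of 10 and 9 of 11 genes were lower on xylose, beside 52.7% of all genes. CLB2, the mitotic cyclin gene, had 80.8 on the petite xylose array against 175 on the petite glucose array, and was 211 on xylose against 283 on glucose in aerobic culture. The part of these shifts in the replication gene values was not tested.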

How the data were processed

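Per the labels, mRNA was hybridised to Affymetrix GeneChip arrays, and the deposited table holds 1 linear intensity for each probe set and array. How the authors computed and scaled these intensities is not stated. From 9335 probe sets, 1 without a value and 60 controls were removed. The array annotation gave 1 gene symbol to 6504 of the remaining 9274, several to 328 and none to 2442, and symbols were updated through RefSeq gene identifiers. The arrays were brought to 1 median, values under the 25th percentile were set to it, log2 was taken, and a gene with several probe sets was read from the brightest on average.

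Limma 3.58.1 in R 4.3.3 fitted background and sugar to the 5462 genes above the floor on at least 1 array, with Benjamini-Hochberg adjustment at 0.05. Differences between 2 arrays carry no test. The fit was also run on simulated data with no floor applied, no departure from additivity and no trend along the array numbering. That run does not bear on these features of the data. The genes and lists were chosen with earlier results of these data known. All 38 replication genes could be named, and from other lists the called genes and the highest and lowest per comparison. Alternatives were other scalings, a floor at the 10th or the 40th percentile, averaging of probe sets, a variance trend, a 3-fold threshold, arrays left out, and a running median along the array numbering removed. Leaving out the highest-numbered probe sets was added after seeing the data. A planned description of promoter motifs was not run. The number of arrays limits the precision.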

Additional observations from a re-analysis of the deposited data

Results flagged for a closer look

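RFA3 differed between xylose and glucose in opposite directions in 2 backgrounds. It was higher on xylose in oxygen-limited culture, by 1.16 as a bound (138 against a glucose value at the floor), and lower on xylose in the petite mutant, by 0.40 (372 against 492). The gap between the 2 differences is 1.56 on the log2 scale. With the running median along the array numbering removed, the differences were 0.81 and -0.23. In the petite pair probe sets of the same gene disagreed with a standard deviation of 0.37. The value of -0.23 is below that size, so the opposite direction is not resolved. The gap rests on 4 arrays and was not tested.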

How the results depend on the processing

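With the intensities as deposited, without scaling, the median of all genes was 0.212 in oxygen-limited minus aerobic (log2; -0.08 as reported) and 0.113 in petite minus aerobic (-0.11 as reported). The replication gene medians became 0.106 and 0.035, and in the single pairs 0.073 on xylose and 0.087 on glucose (oxygen-limited) and -0.133 on xylose and 0.231 on glucose (petite). Then 5 replication genes rose in oxygen-limited culture, 1 rose in the petite mutant and 3 were 2-fold apart in petite minus aerobic on xylose. MCM3 (0.135), MCM5 (0.009), PRI1 (0.067), PRI2 (0.033) and RFC1 (0.106) changed sign in oxygen-limited culture, as did CDC7 (0.01), RFC2 (0.074) and TOP2 (0.013) in the petite mutant, where POL2 was at 0. These are the genes whose reported difference exceeded its standard error. Among smaller differences MCM2, POL1, POL3 and RFC2 also turned positive in oxygen-limited culture, and ORC2, MCM7, DPB2, RFC1, RFA1 and RFA2 in the petite mutant. Quantile normalization put the all-gene median at 0.021 and the replication gene medians at -0.203, or -0.212 on xylose and -0.092 on glucose.

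Removing the running median gave an all-gene median of 0.033 and replication gene medians of -0.056, or -0.104 on xylose and 0.092 on glucose. It put CDC6 at 0.33, DPB11 at 0.019 and PRI2 at 0.051, left 1 riser and 1 faller in the petite mutant, and left 0 genes 2-fold apart in xylose minus glucose of oxygen-limited culture and 3 in petite minus aerobic on xylose. Leaving out the highest-numbered probe sets, which removes RFA1 and RFA3, left 2 fallers in oxygen-limited culture and medians of -0.139, or -0.171 on xylose and -0.037 on glucose. It gave 1 faller in the petite mutant, and 0, 3 and 3 genes 2-fold apart in xylose minus glucose (oxygen-limited) and in oxygen-limited minus aerobic on xylose and on glucose. The cause of the dimmer stretch was not tested.

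A floor at the 10th percentile gave 2 fallers in the petite mutant. One at the 40th gave 1 riser in oxygen-limited culture, a median of -0.259 on glucose, CDC45 at 0.023 in xylose minus glucose, and 0, 3 and 2 genes 2-fold apart in xylose minus glucose (oxygen-limited), oxygen-limited minus aerobic (glucose) and petite minus aerobic (xylose). A variance trend gave 1 riser in oxygen-limited culture and 2 fallers in the petite mutant. A 3-fold rule left 2 genes on xylose and 3 on glucose in oxygen-limited minus aerobic and 0 in the other pairs. Under the 8 changes of processing, 833 to 1573 genes over the whole array were called in oxygen-limited minus aerobic (1312 as reported), 0 to 560 in petite minus aerobic (2 as reported) and 0 to 99 in xylose minus glucose (41 as reported).

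With arrays or pairs left out, 0 to 1 replication genes rose and 0 to 5 fell in oxygen-limited culture, and the median ran from -0.361 to -0.147. RFC1 ran from -0.556 to 0.062 in oxygen-limited culture and was at 0.047 without the aerobic xylose array. In xylose minus glucose RFA3 ran from -0.102, without the oxygen-limited arrays, to 0.68, and CDC45 from -0.355 to 0.03, without the petite arrays. In petite minus aerobic POL2 ran from -0.638 to 0.08 and TOP2 from -0.634 to 0.1, both highest without the petite xylose array. Without 1 array of a pair, its partner no longer informs the other terms, so these fits match those without the pair for the other comparisons. No paired analysis was possible because each condition has 1 array and the labels carry no replicate numbers, although the fit itself compares sugars within backgrounds and backgrounds within sugars. Of 1705 comparisons of a replication gene's difference with its value under an alternative, 1439 kept their call or lack of one, with uncalled differences moving by no more than their standard error, and 23 changed sign where the reported difference exceeded its standard error. That total counts the matching fits more than once, and the share varied by setting. With the intensities as deposited, 7 of 37 genes kept theirs in oxygen-limited minus aerobic and 4 in petite minus aerobic. All 37 did in xylose minus glucose.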
